A study of Mus musculus with 14 samples.

Results

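The genes described here are 44 genes of the lysosome: proteases, glycosidases, lipid-handling enzymes, membrane proteins, subunits of the proton pump, a calcium channel and the transcription factor Tfeb. They were chosen by name as a list of lysosomal enzymes, membrane proteins and pump subunits, and matched to array probes through the transcript accession of each probe. The list matched 59 of the 41174 non-control probes, which stood for 42 of the 44 genes; Cd68 and Ctse had no probe named in this way and were not analysed here. After spots flagged by the scanner software and dim probes were set aside, 37 of the 42 genes could be tested, among 21969 features in all. The other 5, Ctsd, Lamp1, Npc2, Man2b1 and Asah1, had too few usable spots after flagged spots were set aside, and their values are given apart.

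The lysosome is the acidic compartment in which a macrophage digests what it has engulfed, and the recycling site for its own worn-out parts. A rotary proton pump, the vacuolar ATPase, acidifies the lumen, where proteases, glycosidases and lipases work, while heavily glycosylated membrane proteins shield the limiting membrane and transporters carry the products out. Many genes of the lysosome are known to be switched on together by TFEB and its relatives, which bind an extended E-box, the CLEAR element, near their start sites.

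The study asked how macrophages of the injured brain divide into subsets, and used YARG mice, an Arg1 reporter strain, all male and 12 to 16 weeks old. The 4 groups were measured on 14 one-colour arrays: brain macrophages carrying the Arg1 reporter (Arg1+, 4 arrays) and brain macrophages without it (Arg1-, 4 arrays), both sorted 1 day after a controlled cortical impact, blood monocytes of injured mice at the same time (post-TBI blood, 3 arrays) and blood monocytes of untreated mice (normal blood, 3 arrays). No array stands for sham surgery, so effects of craniectomy and of the impact cannot be told apart, and whether an array stands for 1 mouse or a pool is not given in the sources used here; the p-values therefore measure the spread between these samples, which may be technical. Levels below are log2 of the processed spot intensity over the array's 75th percentile, so that 0 is the level of that percentile, and levels of different genes cannot be set against each other because probes differ in brightness. Replicates are listed in label order, which is 1 to 4 for the brain groups, 1, 3 and 4 for post-TBI blood and 2, 3 and 4 for normal blood.

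The array signals carried the labels of the sort. Arg1 itself stood at 6.82, 6.20 and 6.21 on the 3 usable Arg1+ arrays and at 4.20, 3.94, 2.40 and 2.12 on the Arg1- arrays, while all 6 blood arrays lay at -3.13 or below. The Arg1- macrophages thus held Arg1 RNA well above background on all 4 arrays, at a level 3.25 ± 0.43 log2 units under the Arg1+ arrays (difference ± SE; limma, adjusted p = 0.000526). Between 50.4% and 68.7% of spots were well above background on an array and none was saturated. Of 10 monocyte and macrophage markers, 9 or 10 were above background on every array. Other cells' markers differed between the brain groups: the summed level of 12 measured neutrophil markers, in multiples of the 75th percentile, ran from 34.7 to 145 on the Arg1- arrays and from 10.4 to 21.3 on the Arg1+ arrays (post-TBI blood 16.9 to 97.2, normal blood 4.83 to 31.6), that of 7 dendritic cell markers from 3.95 to 5.52 against 0.417 to 0.707 (post-TBI blood 1.68 to 1.82, normal blood 1.23 to 3.22), with Itgae not above background on any array, and that of 8 eosinophil, basophil and mast cell markers from 3.70 to 6.08 against 0.462 to 0.840 (post-TBI blood 50.05 to 64.4, normal blood 37.5 to 76.2), with Mcpt8 not above background on any array. That of 7 NK cell markers ran from 0.870 to 2.18 against 0.244 to 0.573 (blood 0.705 to 3.46). The summed level of 8 T cell markers went the other way, at 5.06 to 8.38 on the Arg1- and 9.80 to 13.3 on the Arg1+ arrays (blood 1.30 to 1.94). Most of the 7 tested T cell markers did not follow that sum. Their median log2 difference was negative for Arg1+ against Arg1- cells, and for both brain groups against post-TBI blood. The sums therefore do not show T cell markers as a class to be higher in Arg1+ cells or in brain. B cell markers were lower in brain than in post-TBI blood, 7 of 7 in both brain groups. Of all features, 20% were lower in Arg1+ and 16.4% in Arg1- cells. The B cell sums were 0.701 to 1.44 against 4.71 to 5.33 (normal blood 3.26 to 4.33). The sum of 9 microglial markers that are in none of the lysosomal lists ran from 24.9 to 33.7 on the Arg1- and from 30.3 to 52.0 on the Arg1+ arrays, against 2.95 to 3.35 in post-TBI and 1.77 to 2.43 in normal blood. Arg1+ cells exceeded post-TBI blood in 4 of 7 neuronal, 4 of 5 astrocyte, 2 of 5 oligodendrocyte and 3 of 5 endothelial markers. They were lower in 1 neuronal, 1 oligodendrocyte and 1 endothelial marker (19.9% and 20% of all features). Arg1- cells were higher in 3, 1, 1 and 2 and lower in 1 neuronal and 1 oligodendrocyte marker (17% and 16.4%). The part of these other cells in the results below was not tested, and in sorted bulk samples fewer cells of a type and less RNA per cell cannot be told apart.

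Because many genes of the lysosome are known as targets of the CLEAR element, the members' promoters were read first. RefSeq promoter windows (GRCm38.p6), from 250 bases before to 50 bases after the start, were found for 36 of the 44 genes. The core E-box CACGTG, the same on both strands, lay in a window of 13 of the 36 genes, or 36.1%, against 8.09% of all 27025 genes with a window and 1146 of the 10376 tested genes that had one. With the flanking T, as TCACGTG on either strand (CACGTGA on the other), it lay in 12 genes (33.3%, against 4.29% of all genes); each such match also counts as a CACGTG match. A gene with several starts was counted where any of its windows held a match. A match is a description of these letters and not a site shown to be bound. Stretches around the match are printed for 11 of the 13 genes, to show how alike the matches are and how their flanks differ. They run 5′ to 3′ on the gene's strand. CACGTG is in capitals, with its flanking T or, where that T is lacking, a flanking A if present. Where a lower-case a follows TCACGTG, as in Atp6v1a, Ctsd and Gla, the other strand reads TCACGTG too.

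Atp6v1a, chr16:44139365-44139411, minus strand: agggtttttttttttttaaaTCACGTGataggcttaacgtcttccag

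Ctsl, chr13:64370731-64370770, minus strand: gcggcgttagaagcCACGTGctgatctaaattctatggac

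Lgmn, chr12:102439116-102439162, minus strand: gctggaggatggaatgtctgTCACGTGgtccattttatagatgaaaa

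Gaa, chr11:119267802-119267848, plus strand: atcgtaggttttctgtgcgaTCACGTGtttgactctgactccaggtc

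Glb1, chr9:114401009-114401055, plus strand: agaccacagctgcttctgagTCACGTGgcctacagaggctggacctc

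Naglu, chr11:101070000-101070046, plus strand: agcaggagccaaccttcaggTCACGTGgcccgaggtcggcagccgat

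Lamp1, chr8:13159079-13159160, plus strand: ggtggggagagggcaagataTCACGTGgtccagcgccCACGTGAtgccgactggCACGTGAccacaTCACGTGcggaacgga

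Cln3, chr7:126583332-126583405, minus strand: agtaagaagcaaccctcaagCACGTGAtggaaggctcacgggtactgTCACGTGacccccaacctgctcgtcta

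Mcoln1, chr8:3500427-3500499, plus strand: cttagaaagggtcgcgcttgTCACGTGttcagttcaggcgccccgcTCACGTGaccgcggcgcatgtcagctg

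Ctsd, chr7:142387900-142387946, minus strand: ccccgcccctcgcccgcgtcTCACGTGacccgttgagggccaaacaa

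Gla, chrX:134601174-134601253, minus strand: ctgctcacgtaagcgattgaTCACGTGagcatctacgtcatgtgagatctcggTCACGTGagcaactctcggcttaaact

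Lamp1 carried 4 matches within the 61 bases before its start, and Cln3, Mcoln1, Gla, Ctsd and Ctsa carried 2 each; of the 2 in Ctsd (-245 and -98) the nearer is printed. The Ctsl match lacks the flanking T and lies farther from the start, at -236, than those of Lgmn (-49), Glb1 (-48) and Naglu (-73). Lgmn, Cln3 and Ctsa each have another start, whose window held no match. The matches of Atp6v0d1 (-3) and Ctsa (-12 and 6) lie at the start and are not printed. No match was found in the windows of Ctsk, Lipa, Grn or Atp6ap1, which says only that these letters are not in those windows.

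Arg1+ macrophages held higher levels of many lysosomal RNAs than Arg1- macrophages. Of the 37 tested members, 11 were higher in Arg1+ cells and 0 were lower, against 2.14% of all features higher and 2.9% lower (limma, Benjamini-Hochberg adjusted p under 0.05 over all 21969 features). The median difference of the members was 0.48 log2 units against 0 over all features, and 34 of 37 members had a positive difference. The 11 were the proteases Ctsk, Ctsl and Lgmn, the glycosidases Gaa, Naglu and Glb1, the lipase Lipa, progranulin (Grn), and the pump genes Atp6v1a, Atp6ap1 and Atp6v0d1. Each slide held 1 array of each brain group, and the members' median difference within slides 1 to 4 was 0.47, 0.51, 0.42 and 0.54.

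How far the 11 calls carry differed between genes. Atp6v1a, Ctsl, Gaa, Lgmn and Naglu kept an adjusted p under 0.05 in all 27 alternative settings run, and Lipa in all but normexp background correction. Glb1, Atp6v0d1, Grn, Ctsk and Atp6ap1 each lost the call in several. The count of 11 fell to 7 without Arg1- replicate 3 and to 6 without Arg1+ replicate 3, with 602 and 698 features called in all against 1108, and it was 7 under quantile normalization and under normexp. Without post-TBI replicate 4, which enters only through the shared estimate of spread, it was 16, with Ctsb, Hexa, Neu1, Tpp1 and Mcoln1 added, and 1790 features were called in all. With quantile normalization the members' median was 0.27. Of the 11 called genes, 7 (63.6%) held CACGTG in a promoter window, against 4 of the 20 members with a window that were tested and not called and 17.2% of all 319 tested genes with a window that were higher in Arg1+ cells.

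**Figure D1:**
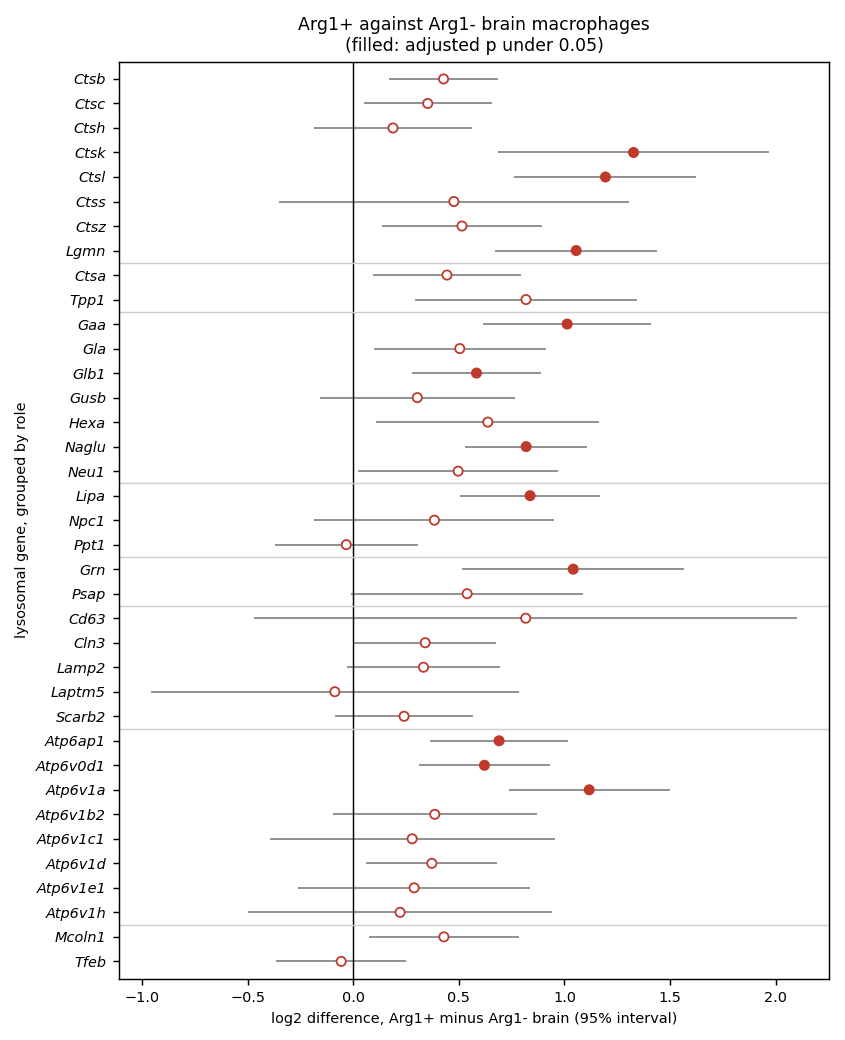
Differences in log2 level between Arg1+ and Arg1- brain macrophages for the 37 tested lysosomal genes (horizontal axis; 4 arrays a group), grouped by role from cysteine proteases at the top to channel and regulator at the bottom, with 95% intervals from the fit over all features. Filled points are the 11 genes that passed the test; 34 of the 37 points lie right of 0, and Laptm5, Tfeb and Ppt1 lie just left of it.

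Lysosomal genes were also higher in brain macrophages than in blood monocytes. Against post-TBI blood, 30 of 37 members were higher and 1 lower in Arg1+ macrophages (19.9% and 20% of all features), with a median difference of 1.09 against -0.03 over all features. In Arg1- macrophages 20 were higher and 1 lower (17% and 16.4% of all features), with a median of 0.62 against -0.02. These 2 comparisons share the same 3 blood arrays, so their values are given side by side and the test of their difference is the Arg1+ against Arg1- comparison above. Within slides 1 to 3 the members' median was 0.90, 1.16 and 0.94 for Arg1+ and 0.49, 0.84 and 0.46 for Arg1- macrophages. The 1 lower gene was Ppt1 in both.

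**Figure D2:**
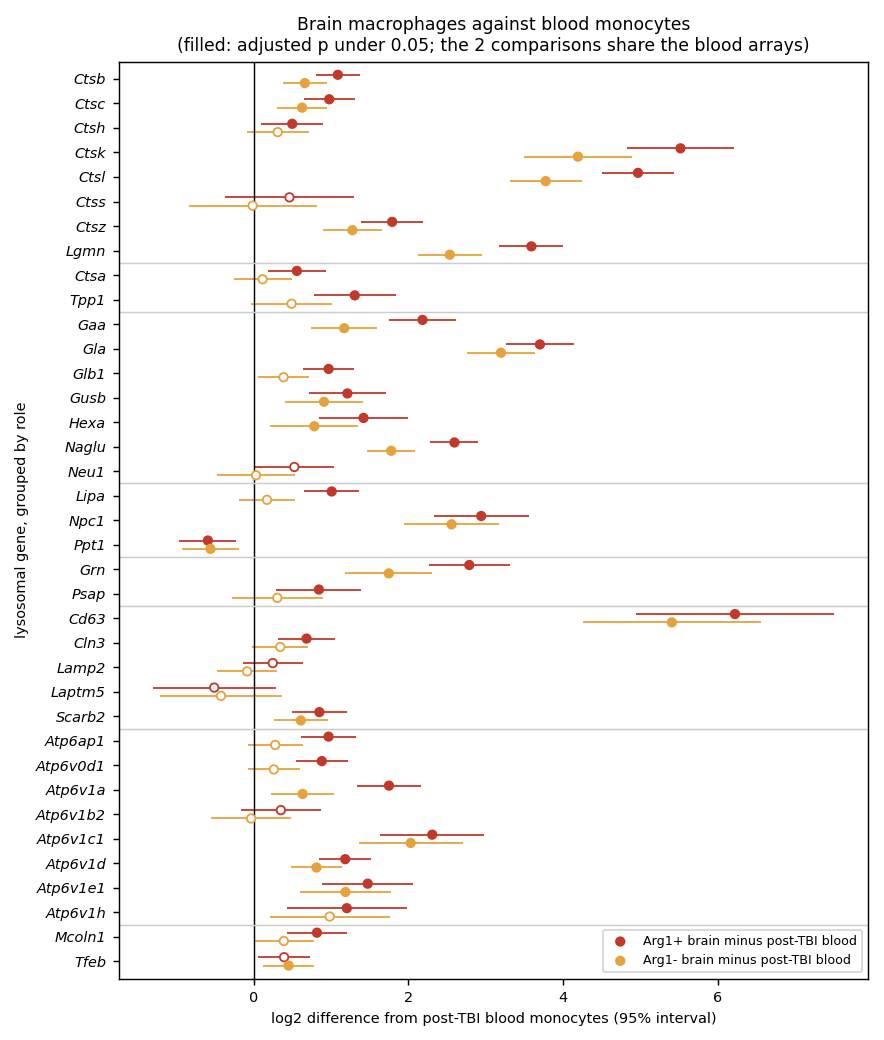
Differences in log2 level from post-TBI blood monocytes (3 arrays) for the 37 tested lysosomal genes, in Arg1+ (red) and Arg1- (orange) brain macrophages (4 arrays each), with 95% intervals; filled points passed the test. Cd63, Ctsk and Ctsl stand farthest to the right, and Ppt1 is filled on the left for both groups.

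Between the blood groups no lysosomal gene passed the test. None of the 37 members was higher or lower in post-TBI than in normal blood with limma's adjusted p (0.109% of all features were higher and 0.041% lower). The members' median difference was 0.13, against 0 over all features. Ctsl came nearest: its 3 post-TBI arrays lay above its 3 normal arrays by 1.10 ± 0.23 (SE), at an adjusted p of 0.11, and without normal blood replicate 3 the difference was 1.31 with an adjusted p of 0.0379.

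**Figure D3:**
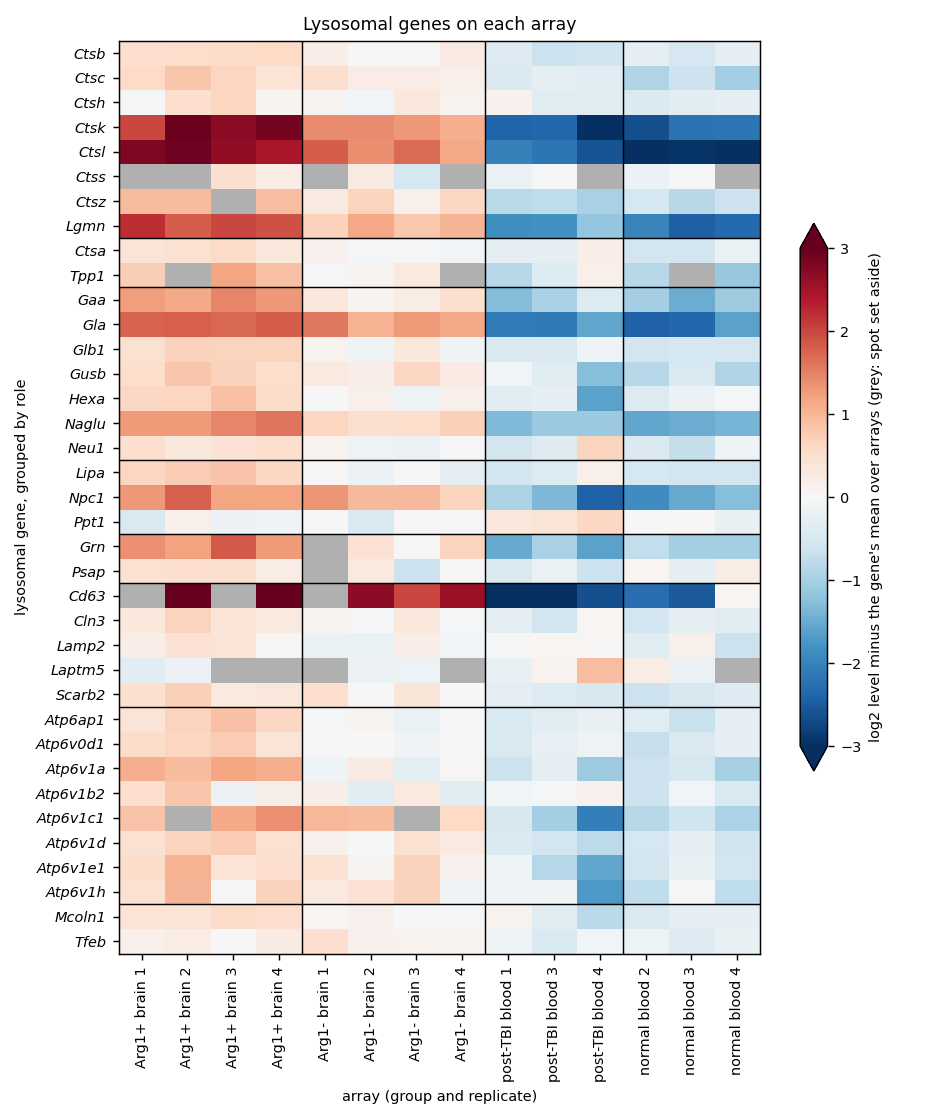
Level of each tested lysosomal gene (rows, grouped by role) on each of the 14 arrays (columns), as the log2 level minus that gene's mean over arrays, with grey for spots set aside and colours that end at 3 and -3. Arg1+ columns are the reddest, most blood columns are blue, and Ctsk, Ctsl and Cd63 reach the ends of the scale.

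The cysteine proteases held the largest differences between the brain groups, those of Ctsk and Ctsl. Cathepsin K (Ctsk), a collagen-degrading protease best known from osteoclasts, stood at 3.30, 4.25, 4.01 and 4.17 on the Arg1+ arrays, at 2.72, 2.71, 2.60 and 2.38 on the Arg1- arrays, at -1.09, -1.06 and -2.62 in post-TBI blood and at -1.34, -0.90 and -0.89 in normal blood. All brain arrays lay above all blood arrays and the brain groups did not overlap; post-TBI replicate 4 was the lowest array. The difference between Arg1+ and Arg1- was 1.33 ± 0.30 log2 units (SE; adjusted p = 0.0183), or 2.51-fold, but its adjusted p rose to between 0.0535 and 0.0586 when any of 5 of the brain arrays was left out (Arg1- replicates 3 and 4, Arg1+ replicates 2, 3 and 4). Against post-TBI blood the differences were 5.52 ± 0.33 in Arg1+ (5.21e-09) and 4.19 ± 0.33 in Arg1- cells (1.94e-07).

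Cathepsin L (Ctsl), an endopeptidase that degrades proteins throughout the lysosome, gave 3.95, 4.07, 3.81 and 3.59 on the Arg1+ arrays, 2.96, 2.53, 2.85 and 2.30 on the Arg1- arrays, -0.89, -1.02 and -1.44 in post-TBI blood and -2.31, -1.79 and -2.54 in normal blood. No pair of neighbouring groups overlapped, which gives the order Arg1+, Arg1-, post-TBI blood, normal blood. The Arg1+ against Arg1- difference was 1.19 ± 0.20 (adjusted p = 0.00285), and the differences from post-TBI blood were 4.97 ± 0.22 in Arg1+ (2.44e-10) and 3.78 ± 0.22 in Arg1- cells (8.91e-09).

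Legumain (Lgmn), the asparaginyl endopeptidase that cuts and matures several cathepsins, followed the same order. Its levels were 4.66, 4.26, 4.45 and 4.35 in Arg1+ cells, 3.14, 3.62, 3.26 and 3.48 in Arg1- cells, 0.60, 0.64 and 1.29 in post-TBI blood and 0.46, -0.01 and 0.12 in normal blood. The brain groups did not overlap and differed by 1.06 ± 0.18 (adjusted p = 0.00295). Differences from post-TBI blood were 3.59 ± 0.19 (1.99e-09) and 2.53 ± 0.19 (1.68e-07).

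The remaining cysteine cathepsins moved less. Ctsz, a carboxypeptidase, had means of 6.65 ± 0.01 in Arg1+ (SD, 3 usable arrays), 6.14 ± 0.25 in Arg1-, 4.86 ± 0.11 in post-TBI and 5.05 ± 0.16 in normal blood. Ctsb, which acts as both endopeptidase and peptidyl-dipeptidase, had means of 3.05 ± 0.04, 2.63 ± 0.11, 1.97 ± 0.14 and 2.16 ± 0.14 in the same order, and its Arg1+ against Arg1- difference of 0.43 had an adjusted p of 0.0582. Ctsc, the dipeptidase that activates granule serine proteases, had means of 4.90 ± 0.17, 4.55 ± 0.14, 3.93 ± 0.08 and 3.43 ± 0.20. These 3 passed the test against post-TBI blood in both brain groups, by 1.79 and 1.27 for Ctsz, 1.09 and 0.66 for Ctsb and 0.97 and 0.62 for Ctsc (Arg1+, then Arg1-). Ctsh, an aminopeptidase, was just past the threshold in Arg1+ cells (0.49 ± 0.19, adjusted p = 0.049), with a value of 0.31 in Arg1- cells; that call was lost in 20 of 27 alternatives, and the adjusted p was as high as 0.357 under normexp. Ctss, the cathepsin that trims the invariant chain of MHC class II, had only 2 usable arrays a group, at means of 7.91, 7.44, 7.45 and 7.47, and passed no test.

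Among the other proteases, Ctsa, which also protects neuraminidase and beta-galactosidase in a complex, had means of 6.35 ± 0.11 in Arg1+, 5.91 ± 0.10 in Arg1-, 5.80 ± 0.27 in post-TBI and 5.48 ± 0.20 in normal blood. It was 0.56 ± 0.18 higher in Arg1+ cells than in post-TBI blood (adjusted p = 0.0204) and 0.11 in Arg1- cells, but the former had an adjusted p of 0.0743 without post-TBI replicate 1 and 0.0883 without replicate 3, and in the authors' deposited values the difference was 0.08. Tpp1, a tripeptidyl peptidase whose loss causes a storage disease of neurons, had means of 4.46 ± 0.23, 3.64 ± 0.17, 3.16 ± 0.51 and 2.52 ± 0.20 on 3, 3, 3 and 2 usable arrays. Its brain groups did not overlap, and the difference of 0.82 ± 0.24 had an adjusted p of 0.0802; against post-TBI blood it was 1.30 ± 0.24 higher in Arg1+ cells (0.000993) and 0.49 in Arg1- cells (0.15). A second Tpp1 probe gave 0.82 (0.0285) and 0.05, and without post-TBI replicate 4 the Arg1- value was 0.75 (0.0158). The mean of usable probes on each array gave 0.42 ± 0.80 for Arg1+ cells (0.732). Where the spot of a Tpp1 probe was flagged, that mean rests on the other probe alone, so it mixes probes of unlike brightness.

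The glycosidases, which trim sugars from glycoproteins, glycolipids and glycogen, gave 3 of the 11 calls between the brain groups. Acid alpha-glucosidase (Gaa), which breaks down glycogen in the lysosome, stood at 2.41, 2.29, 2.62 and 2.45 in Arg1+ cells, at 1.47, 1.25, 1.39 and 1.63 in Arg1- cells, at -0.14, 0.18 and 0.75 in post-TBI blood and at 0.15, -0.32 and 0.10 in normal blood. The 2 brain groups did not overlap each other or blood, whereas the blood groups overlapped. Arg1+ cells exceeded Arg1- cells by 1.01 ± 0.19 (adjusted p = 0.00487), a 2.02-fold difference, and the brain groups exceeded post-TBI blood by 2.18 ± 0.20 (6.46e-07) and 1.17 ± 0.20 (0.00038).

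Naglu, an enzyme of heparan sulfate breakdown, had tight replicates. The Arg1+ arrays read 1.97, 1.95, 2.16 and 2.30, the Arg1- arrays 1.32, 1.17, 1.22 and 1.40, post-TBI blood -0.65, -0.43 and -0.42 and normal blood -0.87, -0.81 and -0.72. No neighbouring groups overlapped. The difference between brain groups was 0.82 ± 0.13 (adjusted p = 0.00232), and those from post-TBI blood were 2.59 ± 0.15 (2.96e-09) and 1.78 ± 0.15 (3.38e-07).

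Beta-galactosidase (Glb1), the enzyme behind the senescence stain, read 1.23, 1.47, 1.43 and 1.44 in Arg1+ cells, 0.86, 0.65, 1.08 and 0.65 in Arg1- cells, 0.30, 0.34 and 0.63 in post-TBI blood and 0.21, 0.25 and 0.24 in normal blood. The brain groups did not overlap, and differed by 0.58 ± 0.14 (adjusted p = 0.0276). Leaving out a single array raised the adjusted p to between 0.0584 and 0.0851 for 6 of the 8 brain arrays (Arg1- numbers 1, 2 and 4, Arg1+ numbers 2, 3 and 4), and the second Glb1 probe gave 0.51 with an adjusted p of 0.162. Differences from post-TBI blood were 0.97 ± 0.15 in Arg1+ (0.000145) and 0.38 ± 0.15 in Arg1- cells (0.0704), the latter 0.49 (0.026) without post-TBI replicate 4.

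Alpha-galactosidase (Gla), which removes galactose from globotriaosylceramide, separated brain from blood most widely among the glycosidases. It stood at 3.75, 3.77, 3.71 and 3.79 in Arg1+ cells, 3.57, 3.03, 3.26 and 3.15 in Arg1- cells, -0.11, -0.14 and 0.42 in post-TBI blood and -0.43, -0.36 and 0.38 in normal blood. The 4 Arg1+ arrays lay close together and above all Arg1- arrays, yet the difference of 0.50 ± 0.19 had an adjusted p of 0.166. The differences from post-TBI blood were 3.70 ± 0.21 (2.75e-09) and 3.20 ± 0.21 (2.69e-08).

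The remaining glycosidases varied more between post-TBI arrays. Hexa, the alpha subunit of the ganglioside-cleaving hexosaminidase, had means of 6.59 ± 0.14, 5.95 ± 0.15, 5.17 ± 0.75 and 5.69 ± 0.19 in Arg1+, Arg1-, post-TBI and normal blood, with post-TBI replicate 4 at 4.31 against 5.59 and 5.62. It was 1.42 higher in Arg1+ cells than in post-TBI blood (adjusted p = 0.000595) and 0.78 higher in Arg1- cells (0.035), and without post-TBI replicate 4 the latter was 0.35 (0.161); it was also lost without Arg1- replicate 1 (0.0587), 2 (0.0732) or 4 (0.0780). Beta-glucuronidase (Gusb) had means of 2.41 ± 0.14, 2.11 ± 0.19, 1.20 ± 0.62 and 1.02 ± 0.24, with differences from post-TBI blood of 1.21 (0.000742) and 0.91 (0.00758); the latter was 0.56 without post-TBI replicate 4. That array was the lowest of the 3 for both genes. Among other members it was also the lowest for Ctsk, Npc1, Atp6v1c1, Atp6v1e1 and Atp6v1h, and the highest for Gaa, Lipa and Tpp1. Neuraminidase 1 (Neu1) had means of 2.61 ± 0.06, 2.12 ± 0.13, 2.09 ± 0.66 and 1.76 ± 0.31 and passed no test, although its 4 Arg1+ arrays lay above its 4 Arg1- arrays (difference 0.50, adjusted p = 0.256). Its post-TBI replicate 4 read 2.85 against 1.63 and 1.78, and without it Arg1+ cells exceeded post-TBI blood by 0.90 (0.000572) in place of 0.52 (0.0981); with slide as a block that value was 0.56 (0.0461).

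**Figure D4:**
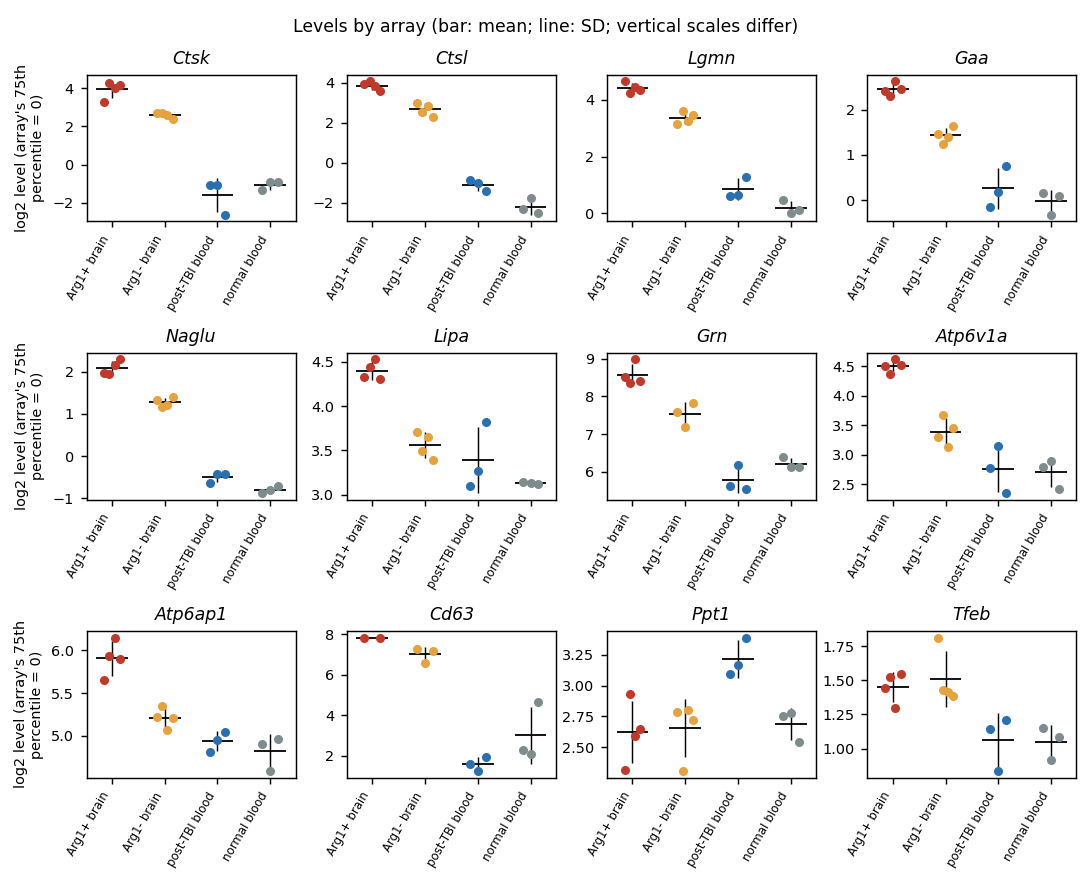
Log2 levels of 12 lysosomal genes on each usable array (points; 0 is the array's 75th percentile), with the group mean (bar) and SD (line) for Arg1+ and Arg1- brain macrophages and post-TBI and normal blood monocytes; vertical scales differ between panels. Ctsk, Ctsl, Lgmn and Naglu step down from Arg1+ through Arg1- to blood, Lipa is high in Arg1+ cells, Ppt1 is highest in post-TBI blood, and the Tfeb points of both brain groups overlap.

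Genes that handle lipids divided. Lysosomal acid lipase (Lipa), which frees cholesterol and fatty acids from engulfed lipoproteins, stood at 4.33, 4.45, 4.53 and 4.30 in Arg1+ cells, at 3.71, 3.50, 3.66 and 3.39 in Arg1- cells, at 3.10, 3.26 and 3.81 in post-TBI blood and at 3.14, 3.13 and 3.12 in normal blood. The Arg1+ arrays lay above all others, whereas the Arg1- arrays overlapped post-TBI blood. Arg1+ cells exceeded Arg1- cells by 0.84 ± 0.15 (adjusted p = 0.00505) and post-TBI blood by 1.01 ± 0.17 (0.0002), and the Arg1- difference from blood was 0.17 (0.497), or 0.38 (0.0454) without post-TBI replicate 4.

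Npc1, the membrane protein that exports cholesterol, was high in both brain groups, with means of 4.58 ± 0.29 and 4.20 ± 0.26 against 1.64 ± 0.76 in post-TBI and 1.66 ± 0.29 in normal blood. The differences from post-TBI blood were 2.94 ± 0.29 (adjusted p = 1.2e-06) and 2.56 ± 0.29 (8.21e-06), and that between the brain groups was 0.38 (0.536). Palmitoyl-protein thioesterase (Ppt1), which removes fatty acids from proteins, ran the other way. It read 2.31, 2.93, 2.59 and 2.65 in Arg1+ cells, 2.78, 2.31, 2.80 and 2.72 in Arg1- cells, 3.09, 3.17 and 3.39 in post-TBI blood and 2.75, 2.78 and 2.54 in normal blood. The 3 post-TBI arrays lay above every other array. The differences from post-TBI blood were -0.60 ± 0.17 (0.012) and -0.56 ± 0.17 (0.02), and the second Ppt1 probe gave -0.98 and -1.30; the Arg1- value was -0.45 (0.0629) without Arg1- replicate 2 and -0.48 (0.0627) without post-TBI replicate 4.

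Progranulin (Grn), the precursor of the granulins and a partner of prosaposin in the lysosome, read 8.52, 8.35, 8.98 and 8.42 in Arg1+ cells, 7.58, 7.18 and 7.82 on the 3 usable Arg1- arrays, 5.63, 6.17 and 5.54 in post-TBI blood and 6.40, 6.12 and 6.13 in normal blood. Arg1+ arrays lay above all Arg1- arrays and both lay above blood. The brain groups differed by 1.04 ± 0.25 (adjusted p = 0.0244), but the call was lost without Arg1- replicate 2 (0.0598) or 3 (0.117) and without Arg1+ replicate 3 (0.0645), and the second Grn probe gave 0.64 (0.196). Differences from post-TBI blood were 2.79 ± 0.25 (7.19e-07) and 1.75 ± 0.26 (0.00016). Prosaposin (Psap), the precursor of the activators that present lipids to their hydrolases, had means of 8.06 ± 0.12, 7.53 ± 0.49, 7.22 ± 0.21 and 7.65 ± 0.25. It was 0.84 higher in Arg1+ cells than in post-TBI blood (0.0174), with 0.30 in Arg1- cells, and the former was 0.74 (0.0559) without post-TBI replicate 4, 0.37 (0.261) with quantile normalization and 0.19 (0.400) in the authors' deposited values.

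Among the membrane proteins, the tetraspanin Cd63, found on late endosomes and exosomes, showed the largest difference of any member between brain and blood. It read 7.81 and 7.83 on the 2 usable Arg1+ arrays, 7.28, 6.58 and 7.15 on the 3 usable Arg1- arrays, 1.58, 1.26 and 1.95 in post-TBI blood and 2.31, 2.07 and 4.65 in normal blood. All brain arrays lay above all blood arrays, and normal replicate 4 stood above the other blood arrays. The differences from post-TBI blood were 6.22 ± 0.59 (adjusted p = 4.62e-06) and 5.41 ± 0.53 (9.41e-06), or 74.8-fold and 42.5-fold; between the brain groups it was 0.82 ± 0.59 (0.566).

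Scarb2, the receptor that carries glucocerebrosidase to the lysosome, had means of 2.57 ± 0.19, 2.33 ± 0.26, 1.72 ± 0.11 and 1.61 ± 0.12, with differences from post-TBI blood of 0.85 (adjusted p = 0.0008) and 0.61 (0.0106). Cln3, a membrane protein lost in juvenile neuronal storage disease, had means of 2.92 ± 0.17, 2.58 ± 0.18, 2.24 ± 0.31 and 2.10 ± 0.15, with differences of 0.68 (0.00498) and 0.34 (0.145); the latter was 0.50 (0.0315) without post-TBI replicate 4. Laptm5, a lysosomal protein of blood cells, had means of 6.87, 6.96, 7.39 and 7.13 and passed no test. For Lamp2, a main glycoprotein of the limiting membrane, the 2 probes disagreed: the brighter one had means of 2.82 ± 0.18, 2.48 ± 0.18, 2.57 ± 0.06 and 2.27 ± 0.41 and passed no test, whereas the other gave -1.07 and -1.01 against post-TBI blood (0.000375 and 0.000842). No direction is therefore given for Lamp2.

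Of the 8 tested pump members, 3 were higher and 0 lower in Arg1+ than in Arg1- cells (2.14% and 2.9% of all features). Atp6v1a, the catalytic subunit that hydrolyses ATP, read 4.50, 4.37, 4.62 and 4.52 in Arg1+ cells, 3.29, 3.67, 3.13 and 3.45 in Arg1- cells, 2.77, 3.14 and 2.35 in post-TBI blood and 2.79, 2.89 and 2.42 in normal blood. The Arg1+ arrays stood clear of all others, while the lowest Arg1- array lay just under the highest post-TBI array. Arg1+ cells exceeded Arg1- cells by 1.12 ± 0.18 (adjusted p = 0.00186), or 2.17-fold, which had the smallest adjusted p of any member in this comparison; the second Atp6v1a probe gave 0.69 (0.0552). Differences from post-TBI blood were 1.75 ± 0.19 (4.3e-06) and 0.63 ± 0.19 (0.0203), and the latter was 0.53 (0.0608) without Arg1- replicate 2 and 0.43 (0.0918) without post-TBI replicate 4.

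Atp6ap1, an accessory protein needed to assemble the pump, read 5.65, 5.93, 6.15 and 5.89 in Arg1+ cells, 5.23, 5.35, 5.07 and 5.21 in Arg1- cells, 4.81, 4.95 and 5.05 in post-TBI blood and 4.91, 4.59 and 4.97 in normal blood. Atp6v0d1, a subunit that couples the membrane ring to the rotor, read 5.72, 5.81, 5.93 and 5.56 in Arg1+ cells, 5.16, 5.17, 5.05 and 5.16 in Arg1- cells, 4.71, 4.91 and 5.01 in post-TBI blood and 4.47, 4.73 and 4.87 in normal blood. In both genes the Arg1+ arrays lay above all others and the Arg1- arrays just above blood. The differences between brain groups were 0.69 ± 0.15 (adjusted p = 0.0161) for Atp6ap1 and 0.62 ± 0.15 (0.0216) for Atp6v0d1, and both were lost without Arg1- replicate 3 (0.0602 and 0.0708) or Arg1+ replicate 3 (0.0523 and 0.0662); Atp6v0d1 was also lost without Arg1- replicate 1 (0.0525) or 4 (0.0508) or Arg1+ replicate 2 (0.0615). Against post-TBI blood, Arg1+ cells were 0.97 (0.000269) and 0.88 (0.000385) higher, and the Arg1- values were 0.28 (0.232) and 0.26 (0.239).

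The other 5 tested subunits belong to the ATP-driven head and stalk of the pump. None of them passed between the brain groups, and 3 passed against post-TBI blood in both. Of all features, 19.9% were higher than in post-TBI blood in Arg1+ cells and 17% in Arg1- cells. Atp6v1c1 had means of 3.01 ± 0.26, 2.73 ± 0.22, 0.70 ± 0.79 and 1.09 ± 0.18, with 2.31 (adjusted p = 6.1e-05) and 2.03 (0.000253) against post-TBI blood. Atp6v1e1 had means of 1.42 ± 0.28, 1.13 ± 0.28, -0.06 ± 0.72 and 0.34 ± 0.20, with 1.47 (0.000592) and 1.18 (0.00402). Atp6v1d, part of the rotor, had means of 2.30 ± 0.15, 1.93 ± 0.20, 1.12 ± 0.18 and 1.24 ± 0.16, with 1.18 (2.56e-05) and 0.81 (0.001). Those are the 3 that passed in both brain groups. Atp6v1h, a regulatory subunit, had means of 0.74 ± 0.41, 0.52 ± 0.33, -0.46 ± 0.93 and -0.33 ± 0.43, with 1.20 (0.0158) and 0.98 (0.0502); its post-TBI replicate 4 lay at -1.54 against 0.07 and 0.07, and without it the Arg1+ value was 0.67 (0.0861). With slide as a block the Arg1- value of Atp6v1h was 0.84 (0.0351). Atp6v1b2, the non-catalytic subunit of the head, had means of 0.31 ± 0.43, -0.07 ± 0.33, -0.04 ± 0.12 and -0.42 ± 0.27 and passed no test.

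Tfeb RNA, which encodes the factor known to bind the CLEAR element and is itself controlled largely at the protein level, did not separate the brain groups. It read 1.44, 1.52, 1.30 and 1.54 in Arg1+ cells, 1.81, 1.43, 1.41 and 1.39 in Arg1- cells, 1.14, 0.84 and 1.21 in post-TBI blood and 1.15, 0.91 and 1.09 in normal blood. The brain groups overlapped and both lay above the blood arrays. The difference between brain groups was -0.06 with a 95% interval from -0.36 to 0.25 (adjusted p = 0.927), and those from post-TBI blood were 0.39 ± 0.16 (0.0583) and 0.45 ± 0.16 (0.0372); the latter moved to 0.35 (0.113) when the first Arg1- array was left out, to 0.48 (0.0514) for the array numbered 2, and to 0.33 (0.174) for post-TBI replicate 3. Mcoln1, the calcium channel of the lysosomal membrane, read 1.81, 1.76, 1.97 and 1.90 in Arg1+ cells, 1.45, 1.52, 1.40 and 1.34 in Arg1- cells, 1.50, 1.06 and 0.58 in post-TBI blood and 0.93, 1.10 and 1.09 in normal blood. Its Arg1+ arrays lay above all others, with differences of 0.43 from Arg1- cells (0.181) and 0.82 from post-TBI blood (0.00212); the Arg1- value against blood was 0.39 (0.118), or 0.61 (0.00907) without post-TBI replicate 1.

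The 5 members left out of the fit are among the textbook genes of the lysosome, so their spots were also read with the flags ignored, a setting chosen after the data were seen. Flagged spots made up 12.1% of the members' probe readings, against 0.807% over all probes and 24.0% among the 412 brightest probes. Cathepsin D (Ctsd), the main aspartic protease, then read 9.13, 8.79, 9.26 and 8.87 in Arg1+ cells, 8.22, 8.47, 7.60 and 8.33 in Arg1- cells, 5.40, 5.93 and 5.93 in post-TBI blood and 5.36, 5.31 and 5.92 in normal blood, with 10 of its 14 spots flagged. Brain and blood arrays stood far apart and the brain groups did not overlap. The differences were 0.86 ± 0.24 between brain groups (adjusted p = 0.0474), 3.26 ± 0.25 from post-TBI blood in Arg1+ cells (1.12e-07) and 2.40 ± 0.25 in Arg1- cells (4.57e-06), and a second Ctsd probe gave 0.87, 3.98 and 3.11.

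Lamp1, the other main glycoprotein of the limiting membrane, read 6.32, 6.35, 6.51 and 6.13 in Arg1+ cells, 5.42, 5.55, 5.42 and 5.78 in Arg1- cells, 5.45, 5.61 and 5.24 in post-TBI blood and 5.49, 5.41 and 5.29 in normal blood, with 13 of 14 spots flagged. The Arg1+ arrays lay above all 10 others, which overlapped. Its differences were 0.79 ± 0.15 between brain groups (adjusted p = 0.00679), 0.90 from post-TBI blood in Arg1+ cells (0.000448) and 0.11 in Arg1- cells (0.669). Npc2, the soluble cholesterol carrier, was 0.80 higher in Arg1+ cells than in post-TBI blood (0.00295), with means of 5.66 ± 0.12, 5.35 ± 0.10, 4.86 ± 0.18 and 5.28 ± 0.41. The alpha-mannosidase Man2b1 was lower in both brain groups than in post-TBI blood, by -0.98 (0.000517) and -0.78 (0.00368), and acid ceramidase (Asah1) passed no test, with means of 3.94 ± 0.21, 3.83 ± 0.10, 4.18 ± 0.11 and 4.01 ± 0.15. With flags ignored and each gene's brightest probe chosen again, 42 members were tested and 15 were higher and 0 lower in Arg1+ than in Arg1- cells. Of all 22216 features in that setting, 2.34% were higher and 2.99% lower. Ctsd, Lamp1, Ctsb (0.94, adjusted p = 0.028) and Tpp1 (0.92, 0.0155) were added to the 11.

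**Figure D5:**
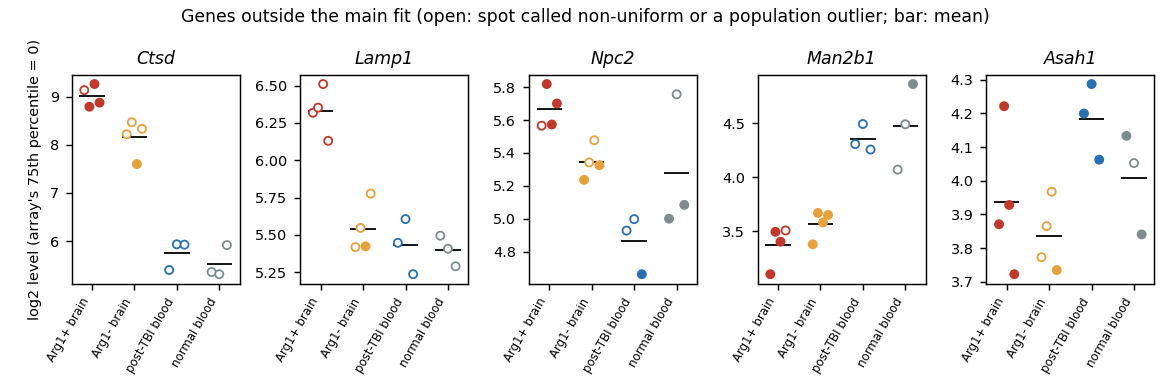
Log2 levels (0 is the array's 75th percentile) on all 14 arrays of the 5 lysosomal genes that were left out of the fit, with open points for spots flagged as non-uniform or as population outliers and a bar at the group mean. Ctsd is high in both brain groups, Lamp1 in Arg1+ cells alone, and Man2b1 is higher in blood; nearly all Lamp1 points are open.

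A further 117 genes of the lysosome, in 6 lists by role, were read beside the members, and 103 of them could be tested. Between the brain groups, Arg1+ cells had 15 higher and 2 lower genes (2.14% and 2.9% of all features), with a median difference of 0.41 against 0 over all features. Against post-TBI blood, Arg1+ cells had 51 higher and 11 lower genes (19.9% and 20% of all features; median 0.66) and Arg1- cells 33 higher and 14 lower ones (17% and 16.4%; median 0.23), so that the share of lower genes in Arg1- cells was near that of all features; in blood after injury 0 passed with limma in either direction. The pump added Atp6v0c (0.88), which forms the proton-carrying ring, Atp6v0e (0.60) and Atp6v0d2, the form of the d subunit known from osteoclasts. Atp6v0d2 was not well above background in the other groups, so that its Arg1+ level is given as at least 3.22-fold higher than in Arg1- cells (adjusted p = 2.8e-05).

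Of 27 other hydrolases tested, 4 were higher and 0 lower in Arg1+ than in Arg1- cells (2.14% and 2.9% of all features). Among the 4 were Ppt2 (0.84), the iduronidase Idua (0.79) and the acid phosphatase Acp5 (0.74). Against post-TBI blood these hydrolases were mixed. Arg1+ cells had 12 higher and 7 lower (19.9% and 20% of all features). Arg1- cells had 8 higher and 7 lower (17% and 16.4%), with a median of -0.01. The values and counts that follow are again those of Arg1+ against Arg1- cells, where 2.14% of all features were higher and 2.9% lower. Of 18 tested genes that deliver enzymes to the lysosome, 3 were higher and 0 lower: the sorting adaptor Gga2 (0.89), and Gnptg (0.63) and Gnptab (0.59), the subunits of the enzyme that makes the mannose 6-phosphate tag. Of 23 tested membrane proteins, the amino acid exporter Slc36a1 (0.80) and the chloride exchanger Clcn7 (0.57) were higher and 0 lower. Of 16 tested regulators, Lamtor3 (0.78) and Rragc (0.67), which help to hold the nutrient sensor mTORC1 on the lysosome, were higher and 0 lower. Of 6 tested cathepsin inhibitors, Serpinb6a was higher (1.57) and Cst7 (-1.72) and Serpinb1a (-1.57) were lower; Serpinb1a is also known as an inhibitor of neutrophil proteases, and 8 of 12 neutrophil markers were lower in the same comparison, whose part in these values was not tested.

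Against post-TBI blood, the largest values outside the members were those of Gpnmb, a glycoprotein of lysosome-rich phagocytes, at 8.89 in Arg1+ and 7.76 in Arg1- cells, and of Igf2r, the large mannose 6-phosphate receptor, at 4.54 in Arg1+ cells; in Arg1- cells Cstb, a cathepsin inhibitor, stood at 3.79. The sorting receptor Sort1 was the lowest in both, at -2.37 and -2.50, followed by Serpinb1a at -2.12 in Arg1+ cells and the amidase Naaa at -1.45 in Arg1- cells.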

How the data were processed

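Spot intensity files of 14 one-colour arrays were deposited, extracted with Feature Extraction 10.7.3.1 per the file headers; the authors also deposited log2 values, whose normalization is not given in the sources used here beyond the limma named in the submitters' processing notes. The members and gene lists were chosen with earlier results of these data known. Processed intensities were divided by each array's 75th percentile, floored at a ratio of 0.05 and taken to log2. Spots flagged non-uniform or as population outliers were left out. Probes needed 2 usable arrays in each of the 4 groups and a signal well above background on 3 arrays; each gene kept its brightest probe (27609 probes, 21969 features). Groups were fitted together with limma 3.58.1 in R 4.3.3 (lmFit, eBayes, trend on, residual degrees of freedom 10), with Benjamini-Hochberg adjustment over all features. Members named were all listed genes; array values were given for those higher in Arg1+ cells, the 4 largest called per direction against blood, Tfeb, Mcoln1, Lamp1 and Ctsd. Other lysosomal genes were named if called between brain groups (up to 6 a list) or among the 2 largest per direction against blood; some results are not reported here. Monocyte, neutrophil, dendritic, microglial, T, B, NK, eosinophil, neuronal, glial and endothelial markers were checked. On simulated data with 200 of 21969 features changed, the Arg1+ against Arg1- test recovered 39% of changes of 1 log2 unit and 93% of changes of 2, with 6.38% false calls. The number of arrays limits precision.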

Additional observations from a re-analysis of the deposited data

Results flagged for a closer look

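Of 61 sets of 4 arrays examined, 4 had a sample far from the other 3 by Dixon's criterion, about the number that chance gives at 1 in 20. Glb1 on Arg1+ replicate 1 was low, at 1.23 against 1.43 for the nearest array. Ppt1 on Arg1- replicate 2 was low, at 2.31 against 2.72. Atp6v0d1 on Arg1- replicate 3 was low, at 5.05 against 5.16, in a group whose whole range was small. Tfeb on Arg1- replicate 1 was high, at 1.81 against 1.43.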

How the results depend on the processing

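Across 27 alternatives no gene's called difference turned its sign. Between the brain groups 940 of 998 gene values kept their side of the threshold, 39 fell out and 19 came in; the counts were 953, 37 and 8 for Arg1+ against post-TBI blood, 961, 23 and 14 for Arg1- against post-TBI blood, and 997, 0 and 1 within blood. Members higher in Arg1+ than in Arg1- cells (11) numbered 7 with normexp background correction, 7 with quantile normalization and 8 with the authors' deposited values. With 1 array left out they numbered 6 to 16, and 602 to 1790 of all features were called in either direction. Members higher than in post-TBI blood then numbered 28 to 30 in Arg1+ cells (30) and 17 to 22 in Arg1- cells (20). In those comparisons 7277 to 8677 and 5857 to 7531 of all features were called. Totals over all features are not given here for normexp, quantile normalization, the deposited values or the replicate and slide blocks. Members lower in Arg1+ cells than in post-TBI blood (1) numbered 2 with the deposited values and 2 with flagged spots kept and probes chosen again, a setting added after the data were seen. Members lower in Arg1- cells than in post-TBI blood (1) numbered 0 with normexp, 2 with the mean of a gene's probes, 2 with flagged spots kept and probes chosen again and 0 to 1 with 1 array left out. Members higher in post-TBI than in normal blood (0) numbered 0 to 1 with 1 array left out. For each of these counts the cause was not tested. Normexp moved the median of all features to 0.12 between the brain groups and to 0.14 for Arg1+ cells against post-TBI blood. With the replicate number as a block, 8 members were higher in Arg1+ than in Arg1- cells, 28 and 1 were higher and lower in Arg1+ cells than in post-TBI blood, 18 and 1 in Arg1- cells, and 0 within blood. The numbers share only a label: same-numbered brain arrays correlated at between -0.46 and 0.40 in their deviations from the group means, so the block is not read as pairing. Arrays of a slide correlated at 0.04 to 0.59 in the same measure. With slide as a block the counts higher were 11 between the brain groups, 30 for Arg1+ and 21 for Arg1- cells against post-TBI blood and 0 within blood; Neu1 in Arg1+ and Atp6v1h in Arg1- cells were gained and Ctsh in Arg1+ cells was lost.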
